A study of Mus musculus with 6 samples.

Results

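The immediate early genes Fos, Fosb, Jun, Junb, Egr1, Ier2, Ier3, Atf3, Dusp1 and Klf6 were examined in cultured embryonic submandibular glands (eSMGs). They were found by their symbols, and all 10 were present among the 23260 gene lines of the count files. The glands were taken from ICR mouse embryos on embryonic day 14, and the 6 libraries were made from 3 tubes of control eSMGs and 3 tubes of eSMGs treated with AMD3100, a bicyclam antagonist of the chemokine receptor CXCR4. Per the study's methods, whole glands (epithelium and mesenchyme together) were cultured on membranes in medium, AMD3100 was used at 50 µM, and up to 10 glands were pooled per tube at 6 h after treatment. No other agent or allele was given in the labels for either group. None of the 6 libraries came from glands that were not cultured or from an earlier time point, so the levels below are those after culture and no change brought about by culture can be read from them.

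Immediate early genes are transcribed from promoters that are already poised, within minutes of a stimulus and without new protein synthesis. The signal reaches them mainly through MAP kinases, which activate ELK factors bound with serum response factor (SRF), and through CREB at cyclic AMP response elements (CREs). Their transcripts are short-lived, so their levels usually fall back soon after the stimulus, and dissection of a tissue is itself known as a stimulus. CXCR4 is a Gi-coupled receptor whose engagement by CXCL12 activates ERK. The comparison therefore asks whether immediate early transcripts differed between glands with and without blockade of CXCR4.

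The promoters of 8 of the 10 genes were taken from the RefSeq table (GRCm38.p6). Ier2 had no entry of the length used, and Egr1 was left out of the search by choice, so neither promoter was searched. In the 250 bases before the transcription start, the CRE half-site TGACG, searched on both strands, was found in 5 of these 8 promoters (Fos, Fosb, Junb, Atf3 and Dusp1), and it was present in 17.8% of all 32851 promoters of that length. The full CRE TGACGTCA, which contains the half-site on each strand, was found in Dusp1 only, and in 1.55% of all promoters. The AP-1 site TGANTCA and the CArG box, the motif of SRF, were in 0 of the 8, against 6.75% and 1.47% of all promoters. Sites outside these 250 bases were not searched. The 0 of 8 therefore holds for this window only and does not cover Egr1 or Ier2. The EGR site GCGNGGGCG was in Fosb alone and the letters TATAAA in Fos alone, against 4.70% and 12.4% of all promoters. A match only describes the letters of this window. The following 4 windows are shown 5′ to 3′ with TGACG or its reverse complement in capitals. They were chosen because Fos and Dusp1 hold the most half-sites, because Fos was at 0 counts and Junb at its highest in the same library, control replicate 1, and because Ier3, which has no half-site, was the one gene higher with AMD3100 in every same-numbered pair.
Fos, chr12:85473640-85473889, plus strand: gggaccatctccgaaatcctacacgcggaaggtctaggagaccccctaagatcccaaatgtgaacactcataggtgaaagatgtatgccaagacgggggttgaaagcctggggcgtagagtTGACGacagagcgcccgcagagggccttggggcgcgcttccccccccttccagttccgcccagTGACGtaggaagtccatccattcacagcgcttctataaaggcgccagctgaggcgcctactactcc
Junb, chr8:84978749-84978998, minus strand: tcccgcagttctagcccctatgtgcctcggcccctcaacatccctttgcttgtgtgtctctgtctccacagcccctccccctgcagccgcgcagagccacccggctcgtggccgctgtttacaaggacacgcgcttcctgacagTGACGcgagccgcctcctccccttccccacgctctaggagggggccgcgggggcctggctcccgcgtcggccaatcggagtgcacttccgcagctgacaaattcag
Dusp1, chr17:26508473-26508722, minus strand: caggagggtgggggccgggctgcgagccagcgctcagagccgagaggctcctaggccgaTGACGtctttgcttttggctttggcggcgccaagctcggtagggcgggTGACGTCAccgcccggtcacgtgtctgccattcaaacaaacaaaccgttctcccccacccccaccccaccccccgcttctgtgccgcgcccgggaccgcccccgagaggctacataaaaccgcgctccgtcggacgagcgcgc
Ier3, chr17:35821463-35821712, plus strand: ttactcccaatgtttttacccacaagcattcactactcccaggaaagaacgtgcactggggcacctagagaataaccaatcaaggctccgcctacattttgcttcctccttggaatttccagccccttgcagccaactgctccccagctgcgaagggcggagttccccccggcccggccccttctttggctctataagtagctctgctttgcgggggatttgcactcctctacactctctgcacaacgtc
The capitals show 2 separate half-sites in Fos, 1 in Junb, and 3 in Dusp1, of which 2 overlap in the full CRE. None of the 10 genes overlaps another RefSeq gene, so their counts are not shared with a neighbour in that annotation.

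The 3′ mRNA libraries held between 9051595 and 14393031 counts, and 3 counts, taken as the floor, corresponded to between 0.208 and 0.331 CPM (a gene's count scaled to a common library total), which covers counting error only. Levels are given as CPM normalised by the TMM method, and fold changes are those of AMD3100-treated over control eSMGs from edgeR's quasi-likelihood test. The floor was computed from the raw totals, without the TMM factors (0.901 in AMD3100 replicate 3 to 1.21 in AMD3100 replicate 1), so it compares with these levels only roughly. Both replicate 3 libraries stood apart from the others before any comparison of treatment. The summed level of 8 skeletal muscle markers was 1325 CPM in control replicate 3 and 1758 CPM in AMD3100 replicate 3, against 143 to 275 CPM in the 4 other libraries. Myog, the muscle differentiation factor myogenin, stood at 520 and 485 CPM in these libraries and at 41.0 CPM or less in the others, and Myod1 was at 0 in AMD3100 replicate 2 only. The summed level of 10 mesenchymal markers was 2141 and 1848 CPM in replicate 3, against 4379 to 4455 CPM in the others, and that of 10 epithelial markers was 607 and 1008 CPM against 1242 to 1357 CPM. Markers of the labelled tissue were present in all libraries, with the epithelial cadherin Cdh1 between 210 and 506 CPM and the collagen Col1a1 between 319 and 834 CPM. In such whole-gland samples, fewer cells of a type and less RNA per cell cannot be told apart.

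The 10 genes differed widely in how far they were detected. Jun and Klf6 had at least 510 counts in every library, and Junb, Egr1, Ier2, Ier3, Atf3 and Dusp1 had at least 22. Fos had 0 counts in control replicate 1 and 13 to 63 in the other 5 libraries. Fosb had 16 counts in control replicate 1 and 0 in the other 5, so it did not pass edgeR's filter on low counts and the remaining 9 genes were tested.

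After 6 h with AMD3100, 0 of the 9 immediate early genes tested passed an unadjusted p-value of 0.05 in edgeR's test, where 1.68% of all 13610 genes did (228 genes). Of all genes, 0.397% were higher and 1.28% lower at that threshold, and 0 of the 9 were either. After Benjamini-Hochberg adjustment, 0 genes of any kind passed in edgeR's test, 5 did with DESeq2 and 3 with replicate number as a block, and 0 of these were among the 9. For 0 of the 10 genes did the 2 groups separate without overlap, against 7.44% of all genes tested. The median log2 fold change of the 9 genes was -0.36, beside 0.02 for all genes tested, with 3 genes above zero and 6 below, where 47.8% of all genes were below. That median was -0.07 without control replicate 3, -0.15 without AMD3100 replicate 2, -0.20 without control replicate 1, -0.21 without AMD3100 replicate 1, -0.44 without AMD3100 replicate 3 and -0.19 without replicate 3 of both groups. With replicate number as a block, 2 of the 9 genes (Egr1 and Ier2, both lower) passed the unadjusted threshold, where 6.66% of all genes did and 3.87% did so with a lower level. These 2 were also the ones that passed without AMD3100 replicate 3, where 451 of all genes passed, against 228 with all 6 libraries. Without replicate 3 of both groups, 0 of the 9 passed, where 798 of all genes did.

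**Figure D1:**
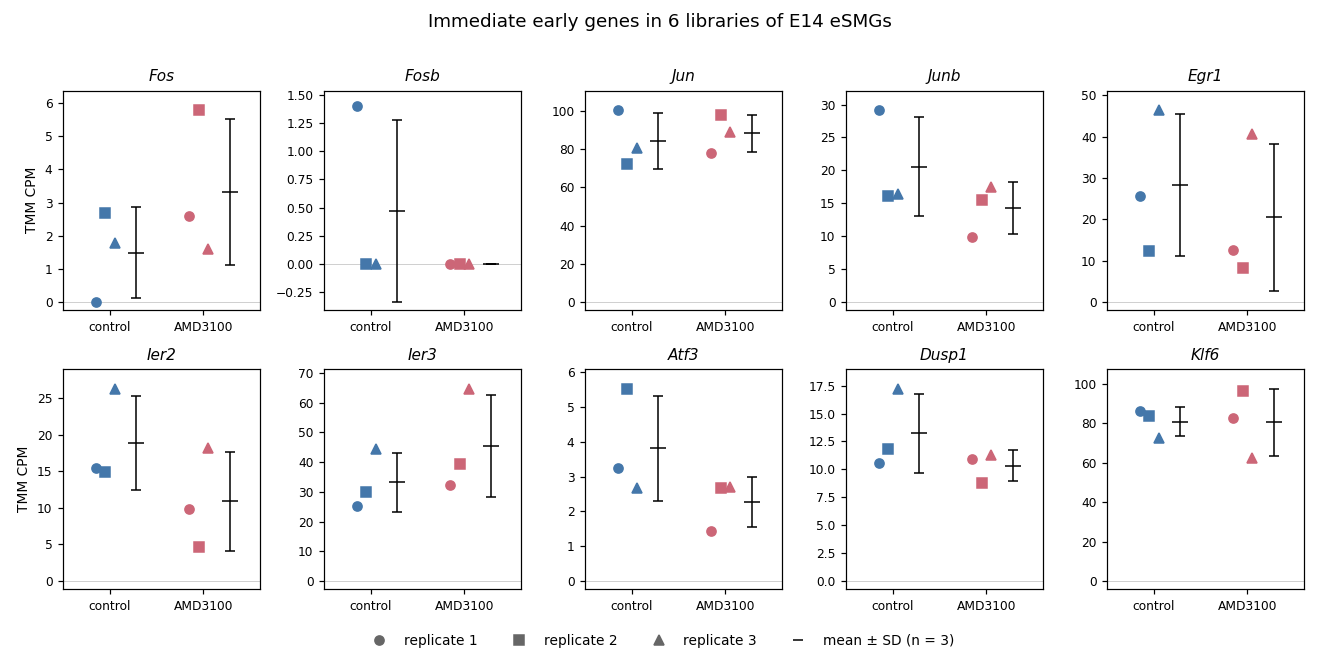
Level of each immediate early gene (TMM-normalised CPM, linear axis per panel) in the 3 control (blue) and 3 AMD3100-treated (red) libraries, with symbols for the replicate number and the mean ± SD of each group in black. The groups overlap in all 10 panels, and the replicate 3 libraries (triangles) lie above the 4 others for Egr1, Ier2 and Ier3 and below them for Klf6.

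The FOS proteins are subunits of the AP-1 transcription factor and need a JUN partner to bind DNA. Fos stood at 0, 2.69 and 1.79 CPM in control replicates 1, 2 and 3, and at 2.59, 5.80 and 1.59 CPM in AMD3100 replicates 1, 2 and 3. The highest library was AMD3100 replicate 2, and the lowest AMD3100 library lay below the higher 2 of the controls. The means were 1.49 ± 1.37 and 3.33 ± 2.20 CPM (SD, n = 3 each), and the log2 fold change was 1.15, with a larger standard error (SE) of 1.38 (95% interval -1.99 to 4.28, edgeR unadjusted p = 0.429, adjusted p = 1.0). It was 0.48 without AMD3100 replicate 2, 0.56 without control replicate 1 and 1.88 without control replicate 2. The interval of Fos therefore includes differences of several fold in either direction. Fosb was at 1.40 CPM in control replicate 1, and its 0 counts in the other 5 libraries allow up to the floor of each. Fosl1, encoding FRA1, had the same pattern, with 25 counts in control replicate 1 and 0 or 1 elsewhere, whereas Fosl2, encoding FRA2, was found in every library at 22.0 to 44.4 CPM, with a log2 fold change of 0.29 (SE 0.34).

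The JUN proteins form AP-1 with FOS or among themselves. Jun stood at 101, 72.2 and 80.6 CPM in control replicates 1 to 3 and at 78.0, 97.6 and 89.1 CPM in AMD3100 replicates 1 to 3. All AMD3100 libraries lay within the range of the controls, at 84.5 ± 14.6 and 88.3 ± 9.83 CPM (SD, n = 3 each). For Jun the log2 fold change was 0.06 with an SE of 0.28 (edgeR unadjusted p = 0.824), and the 95% interval, -0.56 to 0.69, leaves out a doubling or a halving. Junb, whose protein often opposes that of Jun at shared targets, stood at 29.2, 16.1 and 16.4 CPM in control and at 9.83, 15.5 and 17.5 CPM in AMD3100-treated eSMGs. Control replicate 1 was the highest library and AMD3100 replicate 1 the lowest, and the other 4 lay within 15.5 to 17.5 CPM. The log2 fold change was -0.53 (SE 0.41, 95% interval -1.45 to 0.39, edgeR unadjusted p = 0.224), and it ranged from -0.72 to -0.20 with each library left out, nearest to zero without control replicate 1. Jund, the JUN gene that is expressed without a stimulus, had 70.6 and 88.5 CPM in the replicate 3 libraries and 161 to 185 CPM in the others, with a log2 fold change of 0.02 (SE 0.43).

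EGR1 is a zinc finger factor induced through ERK and SRF. Egr1 stood at 25.8, 12.4 and 46.5 CPM in control replicates 1 to 3 and at 12.5, 8.19 and 40.7 CPM in AMD3100 replicates 1 to 3. Both replicate 3 libraries were above the 4 others, and AMD3100 was the lower library in all 3 same-numbered pairs. That count depends on the numbering of replicates 1 and 2, since AMD3100 replicate 1 (12.5 CPM) lay just above control replicate 2 (12.4 CPM). The block rests on the same numbering, and the check of pairing set apart the replicate 3 pair alone. The means were 28.2 ± 17.2 and 20.5 ± 17.7 CPM (SD, n = 3 each), with a log2 fold change of -0.47 (SE 0.66, 95% interval -1.97 to 1.03, edgeR unadjusted p = 0.498). With replicate number as a block, the log2 fold change was -0.61 (SE 0.27, edgeR unadjusted p = 0.0495, adjusted p = 0.746). The value moved with single libraries of both groups. With condition only it was -1.46 without AMD3100 replicate 3 (edgeR unadjusted p = 0.0314), 0.11 without control replicate 3 (unadjusted p = 0.873) and -0.88 without both (unadjusted p = 0.113). It was -0.08 without AMD3100 replicate 2 (unadjusted p = 0.909) and -0.21 without AMD3100 replicate 1, and -0.82 without control replicate 2. The adjusted p-value of Egr1 over the 15 alternatives lay between 0.746 and 1.0. Its relatives were barely present, with Egr2 between 0 and 34 counts and Egr3 between 0 and 31 counts per library, and neither passed the filter.

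Ier2 encodes a nuclear protein of the immediate early response and lies at chr8:84661331-84662852. It stood at 15.5, 14.8 and 26.3 CPM in control and at 9.89, 4.69 and 18.1 CPM in AMD3100-treated eSMGs. It was lower with AMD3100 in all 3 same-numbered pairs, but AMD3100 replicate 3 was above control replicates 1 and 2. The means were 18.9 ± 6.43 and 10.9 ± 6.78 CPM (SD, n = 3 each), and the log2 fold change was -0.79 (SE 0.53, 95% interval -1.99 to 0.41, edgeR unadjusted p = 0.168), the lowest p-value among the 9 genes. With the replicate block it was -0.93 (SE 0.36, edgeR unadjusted p = 0.0274, adjusted p = 0.703), and the adjusted p-value over the 15 alternatives lay between 0.703 and 1.0. Without AMD3100 replicate 3 it was -1.38 (edgeR unadjusted p = 0.0296), and without replicate 3 of both groups -1.05 (unadjusted p = 0.0863). It was nearer to zero without AMD3100 replicate 2 (-0.42, unadjusted p = 0.409) and without control replicate 3 (-0.46, unadjusted p = 0.449). Among all genes tested, 14.6% were lower in all 3 pairs, as were Egr1 and Ier2 of the 9 genes here.

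Ier3, also called IEX-1, encodes a stress-inducible regulator of survival and ERK signalling. It stood at 25.3, 30.0 and 44.3 CPM in control and at 32.3, 39.4 and 64.7 CPM in AMD3100-treated eSMGs. It was higher with AMD3100 in all 3 same-numbered pairs, as were 15.7% of all genes tested, although control replicate 3 lay above AMD3100 replicates 1 and 2. The means were 33.2 ± 9.87 and 45.5 ± 17.0 CPM (SD, n = 3 each), with a log2 fold change of 0.45 (SE 0.37, 95% interval -0.39 to 1.29, edgeR unadjusted p = 0.254). With the block it was 0.43 (SE 0.20, edgeR unadjusted p = 0.0574, adjusted p = 0.765), still above the threshold. With condition only it was 0.09 without AMD3100 replicate 3 (unadjusted p = 0.810), 0.29 without control replicate 1 and 0.72 without control replicate 3.

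Atf3, encoding a stress-induced repressor of the ATF family, stood at 3.23, 5.53 and 2.69 CPM in control and at 1.44, 2.67 and 2.70 CPM in AMD3100-treated eSMGs. Control replicate 2 was the highest library, and control replicate 3 and AMD3100 replicates 2 and 3 were nearly level. The log2 fold change was -0.75 (SE 0.81, 95% interval -2.60 to 1.09, edgeR unadjusted p = 0.378), and it was -0.39 without control replicate 2. Of the stress genes that act with ATF3, 0 of 11 integrated stress response genes passed the unadjusted threshold. Ppp1r15a, which encodes GADD34 and restores translation after stress, had the lowest p-value of that list, at 14.5 ± 2.50 and 8.15 ± 5.02 CPM (SD, n = 3 each).

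Dusp1 encodes MKP-1, a nuclear phosphatase that inactivates MAP kinases and is itself an immediate early gene. It stood at 10.6, 11.9 and 17.2 CPM in control and at 10.9, 8.74 and 11.3 CPM in AMD3100-treated eSMGs. Control replicate 3 was the highest library, and the 5 others lay between 8.74 and 11.9 CPM. The log2 fold change was -0.36 (SE 0.39, 95% interval -1.25 to 0.54, edgeR unadjusted p = 0.390), and it was -0.11 without control replicate 3. Klf6, encoding a Krüppel-like factor induced by wounding, stood at 86.4, 83.6 and 72.4 CPM in control and at 82.8, 96.3 and 62.5 CPM in AMD3100-treated eSMGs. The replicate 3 library was the lowest of each group, and the group means were nearly equal at 80.8 ± 7.40 and 80.6 ± 17.0 CPM (SD, n = 3 each). For Klf6 the log2 fold change was 0.00 within rounding (SE 0.28, edgeR unadjusted p = 0.991), with a 95% interval of -0.65 to 0.64, which leaves out a doubling or a halving.

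**Figure D2:**
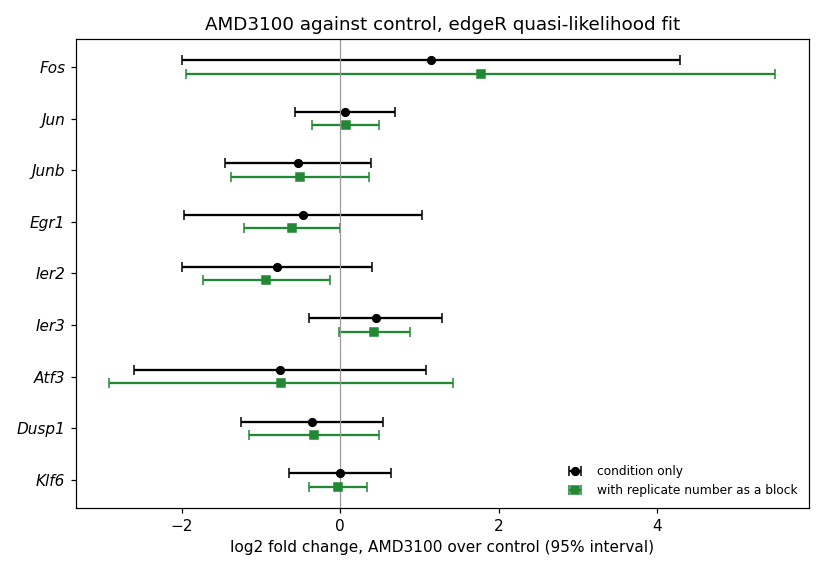
Log2 fold change of AMD3100-treated over control eSMGs with its 95% interval for the 9 immediate early genes tested, from edgeR with condition only (black circles) and with replicate number as a block (green squares). With condition only all 9 intervals include zero, and with the block those of Egr1 (-1.22 to -0.0015) and Ier2 (-1.73 to -0.13) do not.

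The tubes of a group differed unequally from gene to gene. The SD of log2(CPM + 1) within groups, pooled over the 2 groups, was 0.20 for Jun, 0.24 for Klf6 and 0.27 for Dusp1, and 1.03 for Egr1, 0.86 for Fos and 0.69 for Ier2. The median over the 9 genes was 0.44, beside 0.56 over all genes tested. Egr1 spanned 5.68-fold and Ier2 5.60-fold between their highest and lowest libraries, against 1.39-fold for Jun and 1.54-fold for Klf6. Both replicate 3 libraries were above the 4 others for Egr1, Ier2 and Ier3, where 23.1% of all genes tested were so, and below them for Klf6, where 21.1% were. The markers of muscle, mesenchyme and epithelium given above moved with the same libraries, and their part in these levels was not tested.

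The 10 genes did not move as a group across the libraries. Among their 45 pairs, the median Pearson correlation of log2(CPM + 1) over the 6 libraries was 0.06, and that of the 10 genes with all other genes tested was -0.003. These values are descriptive, since all points share the same libraries and depth. Egr1 and Ier2 had a correlation of 0.88, Ier2 and Dusp1 of 0.85, and Egr1 and Dusp1 of 0.71, and with each library left out the last of these ranged from 0.49 (without control replicate 3) to 0.84. Fosb and Junb had a correlation of 0.81, which rests on control replicate 1. The correlation of Fos and Junb was -0.73 over the 6 libraries but -0.15 without control replicate 1, where Fos was at 0. That of Egr1 and Klf6 was -0.83, between -0.91 and -0.72 with each library left out. Fos and Fosb had a correlation of -0.84, which also rests on control replicate 1. The genes whose pattern was most like that of Fos, among those with a mean of at least 10 CPM, were Vps29, Pip4k2c, Vrk1, Ormdl3 and Mbnl1, with correlations from 0.98 to 0.99 over the 6 libraries. Fos itself rests on few counts, and 8236 genes were compared with it.

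**Figure D3:**
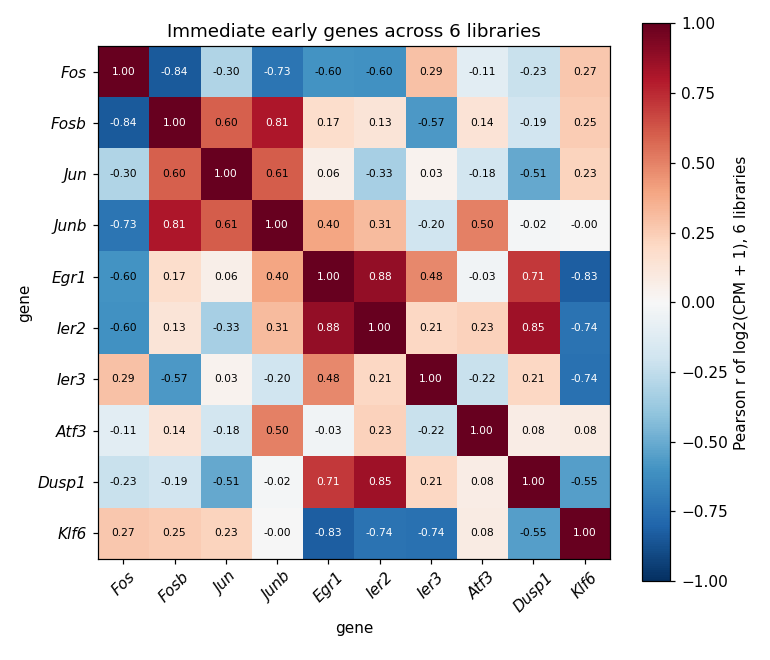
Pearson correlation between the 10 immediate early genes, computed on log2(CPM + 1) over the 6 libraries, on a scale from -1 (blue) to 1 (red). Egr1, Ier2 and Dusp1 were positive with each other (0.71 to 0.88), as were Fosb, Jun and Junb (0.60 to 0.81). Fos is most negative with Fosb (-0.84) and Junb (-0.73). All values of Fosb rest on control replicate 1, the only library with Fosb counts. Without that library the correlation of Jun and Junb was 0.27 and that of Fos and Junb -0.15.

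Other genes of the immediate early response and of its control were taken from lists. The lists were chosen with earlier results of these data known. Their shares of genes passing are therefore descriptions and no independent sign of an excess. Of 135 genes tested in 9 lists, 6 passed the unadjusted threshold, all lower with AMD3100, which is 4.44% beside the 1.68% of all genes. With the replicate block, 12 passed (8.89%), 9 of them lower (6.67%), beside 6.66% and 3.87% of all genes in that fit, and the 8 that did not pass without it were chosen by that result: Atf6, Plk2, Socs3, Id3 and Ppp1r15a, lower, and Crebbp, Hsp90aa1 and Hsp90ab1, higher. Of 42 other immediate early genes, 4 passed with a lower level (9.52%) and 0 with a higher one, where 1.28% and 0.397% of all genes tested did so, and the median log2 fold change was -0.24. These were Nr4a1, Ctgf, Gadd45a and Snai1. Nr4a1, encoding the orphan nuclear receptor NUR77, stood at 3.15, 5.89 and 1.29 CPM in control and at 0.81, 0.37 and 0.49 CPM in AMD3100-treated eSMGs. The groups did not overlap, with 13 to 81 counts in control and 4 to 14 in AMD3100 libraries. Its log2 fold change was -2.60 (SE 1.13, edgeR unadjusted p = 0.0471), with an unadjusted p of 0.124 with the block, and it passed the threshold in 5 of 14 alternatives, which among the libraries left out in turn included only control replicate 3. Its family members Nr4a2, at 15.9 to 25.9 CPM, and Nr4a3, at 0 to 2.76 CPM, overlapped between the groups.

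Ctgf, encoding the matricellular protein CCN2 and a target of both SRF and YAP, stood at 14.6, 5.67 and 8.16 CPM in control and at 1.32, 3.22 and 3.43 CPM in AMD3100-treated eSMGs. All AMD3100 libraries were below all controls, and the log2 fold change was -1.84 (SE 0.65, edgeR unadjusted p = 0.0207, adjusted p = 1.0). It did not pass without control replicate 1 (-1.39, unadjusted p = 0.105) or without AMD3100 replicate 1 (-1.51, unadjusted p = 0.0649). The related Cyr61, encoding CCN1, stood at 3.50, 4.87 and 3.09 CPM in control and at 1.21, 0 and 3.56 CPM in AMD3100-treated eSMGs and overlapped through AMD3100 replicate 3. Gadd45a, a growth arrest and DNA damage gene, was at 8.58 ± 4.94 and 3.08 ± 1.11 CPM (mean ± SD, n = 3 each), for a log2 fold change of -1.48 (SE 0.65, edgeR unadjusted p = 0.0492), and did not pass with the block (unadjusted p = 0.0682) or without control replicates 1 (-0.93) or 2 (-1.59) or AMD3100 replicates 1 (-1.42) or 2 (-1.27). Nor did it pass with limma-voom after quantile normalization (unadjusted p = 0.0804) or with no filter on low counts (unadjusted p = 0.0623). Snai1, a repressor of epithelial cadherin, stood at 38.2, 39.9 and 66.6 CPM in control and at 15.9, 22.9 and 34.1 CPM in AMD3100-treated eSMGs, so that its log2 fold change was -0.99 (SE 0.39, edgeR unadjusted p = 0.0309). It did not pass without control replicate 3 (-0.68) or AMD3100 replicates 1 (-0.76) or 2 (-0.95). With the block its adjusted p-value in edgeR was 0.254, the lowest of these 4 genes, in a range of 0.254 to 1.0 over the alternatives. Btg2, Zfp36 and Hspa1b had log2 fold changes of 0.00, 0.64 and -0.08, and Hspa1a of -0.44, all with overlapping groups.

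The MAP kinase phosphatases other than Dusp1 act as feedback inhibitors of the MAP kinases, and 2 of 9 tested passed the unadjusted threshold, both with a lower level, where 1.28% of all genes tested did so. By the sign of the fold change alone, 6 of the 9 were below zero and 3 above. Dusp6, an ERK-specific phosphatase induced by ERK itself, stood at 236, 214 and 263 CPM in control and at 97.2, 186 and 132 CPM in AMD3100-treated eSMGs. The groups did not overlap, and the log2 fold change was -0.78 (SE 0.32, edgeR unadjusted p = 0.0376, adjusted p = 1.0). Dusp7, a related cytoplasmic phosphatase, was at 34.0 ± 12.2 and 18.6 ± 3.43 CPM (mean ± SD, n = 3 each), for a log2 fold change of -0.87 (SE 0.36, edgeR unadjusted p = 0.0400). Of the fits with 1 library left out, Dusp6 passed only in that without AMD3100 replicate 2, and it ranged from -0.58 (without AMD3100 replicate 1) to -1.04 (without AMD3100 replicate 2) with each library left out. Dusp7 did not pass without control replicate 1 (-0.54) or any single AMD3100 library (-0.97 to -0.74), or with limma-voom after quantile normalization (unadjusted p = 0.0524). With the block, the edgeR adjusted p-values were 0.386 and 0.578, and over the alternatives they lay between 0.386 and 1.0 for Dusp6 and between 0.578 and 1.0 for Dusp7. Other RefSeq genes overlap Dusp6, Ctgf and Gadd45a. Among 22 upstream regulators tested, 0 passed with condition only (median log2 fold change -0.03, lowest p for Map2k1, which encodes MEK1), and 1, the coactivator gene Crebbp, passed with the block. Srf was at 65.5 ± 30.1 and 73.1 ± 22.1 CPM (SD, n = 3 each), with a log2 fold change of 0.16 (SE 0.39), and it was highest in the replicate 3 libraries. Cxcr4, the receptor that AMD3100 blocks, was at 23.1 ± 11.1 and 16.3 ± 1.36 CPM (mean ± SD, n = 3 each), for a log2 fold change of -0.50 (SE 0.44). Its transcript does not test the blockade, which acts on the protein.

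**Figure D4:**
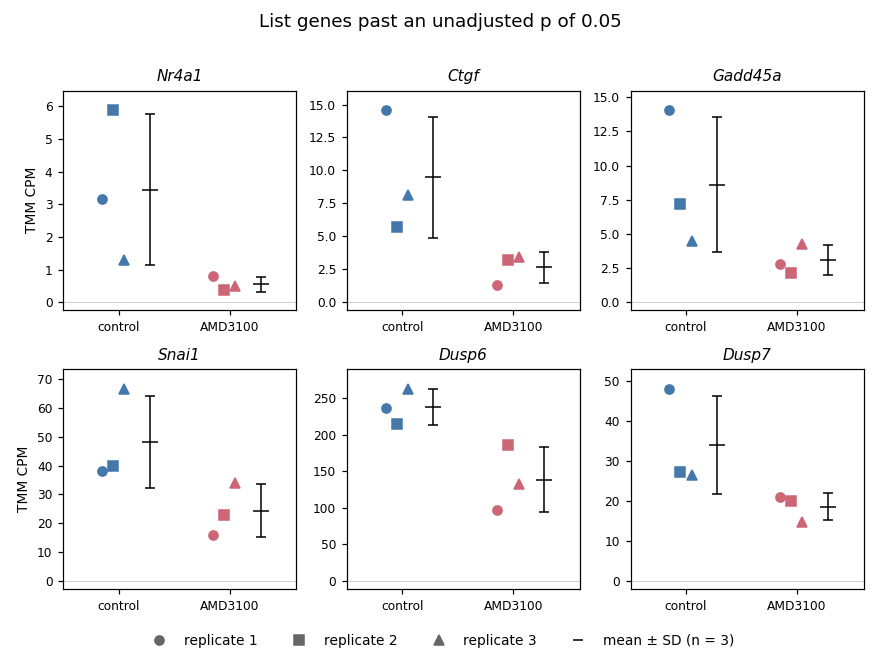
Level (TMM-normalised CPM, linear axis per panel) of the 6 list genes that passed an unadjusted p of 0.05, in the 3 control (blue) and 3 AMD3100-treated (red) libraries, with the mean ± SD of each group in black. In every panel all AMD3100 libraries lie below all control libraries, narrowly so for Gadd45a (4.48 against 4.29 CPM in the 2 replicate 3 libraries). The genes were chosen by that threshold, so this separation is no further support. Of all genes tested, 7.44% did not overlap between the groups, in either direction.

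In the remaining lists, 0 genes passed the unadjusted threshold with condition only, and 4 did with the block (Atf6 and Ppp1r15a lower, the chaperones Hsp90aa1 and Hsp90ab1 higher). Beside the integrated stress response, the lists held 18 AP-1 and ATF partners tested (median log2 fold change -0.03, lowest p for Atf6), 13 KLF family members (0.11, Klf16), 14 heat shock genes (0.06, Hsf1), 10 hypoxia genes (-0.04, Egln3) and 3 inflammatory wound genes (-0.06, Cxcl1). The other 9 of the 12 wound genes did not pass the filter, and Ptgs2 and Ccl7 had 0 counts in every library, while Il6 had at most 5. The summed heat shock level was 11906 and 13173 CPM in the replicate 3 libraries and 6741 to 8457 CPM in the others, moving with the same libraries as Egr1, Ier2 and Ier3. The summed KLF level, which does not count Klf6, moved the other way, at 128 and 179 CPM in replicate 3 against 439 to 474 CPM. Across the 7 lists of cell type markers, those of epithelium and mesenchyme included, 0 of the 55 genes tested passed with condition only. With the block 7 did (12.7%, beside 6.66% of all genes). The epithelial Cdh1 and Krt14 were higher, and Twist1, Hbb-b1, Hand2, Myod1 and Myog were lower. Myod1 and Myog do not stand for their list. With condition only, 6 of the 8 skeletal muscle markers had a log2 fold change above zero and 2 below (median 0.45). The part of these markers in the values of Egr1 and Ier2 with the block was not tested. The summed macrophage level was 268 and 189 CPM in replicate 3 against 93.7 to 126 CPM. The summed erythroid level was highest in control replicate 2 (17165 CPM, against 6135 to 9565 CPM), the endothelial one lay between 21.5 and 55.6 CPM, and the neural one between 538 and 799 CPM.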

How the data were processed

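Counts of reads per gene symbol, deposited by the authors without normalization, were used for 6 libraries of E14 eSMGs (3 control, 3 AMD3100), grouped and numbered by their titles. A kit that reads 3′ mRNA ends was used, with 50 bp single reads. The submitters' processing notes name Bowtie2, edgeR and mm10. The counting tool, annotation and strand setting are not given in the sources used here. Lines that repeated both symbol and counts (22) were left out. The ribosomal RNA gene Rn45s held 16.2 to 32.5% of the counts.

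Counts were tested in edgeR 4.0.16 (R 4.3.3) with TMM normalization, filterByExpr, glmQLFit, glmQLFTest and Benjamini-Hochberg adjustment over 13610 genes, with condition as the only term. The unpaired design followed the study, whose quantile normalization and per-gene test were replaced by a count model. Intervals of 95% used the standard error from the quasi-likelihood F. The fits were tested on simulated data at 2 dispersions (spread between replicates beyond counting error). All changed genes were recovered at 0.02, but most were missed at 0.335, which is near that of the condition-only fit. Recovery was counted by an adjusted p under 0.05, which is stricter than the unadjusted threshold, so the share missed does not carry over to unadjusted calls. A gene that did not pass either threshold is not shown to be unchanged. As the labels number both groups alike, pairing was checked by correlating deviations from the group means across genes (0.185, 0.171 and 0.584 for replicates 1, 2 and 3). All were above 0.1, so the block is given where it changes a call, but control 2 with AMD3100 1 (0.198) and control 1 with AMD3100 2 (0.146) were as high, so these values set apart the replicate 3 pair alone. Correlations with a library left out were added after the data were seen. Whether tubes held glands of separate litters is not stated, so p-values measure the spread between these tubes.

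The members and lists were chosen with earlier results of these data known. Genes named were the members, a fixed set of relatives, list genes with an unadjusted p under 0.05 or otherwise the lowest p of a list with values for some, the 5 genes most like Fos, and Cxcr4. Myog, Myod1, Cdh1, Col1a1, Nr4a2, Nr4a3, Ptgs2, Ccl7 and Il6 were added after their values were seen. One list gene is not reported here. Alternatives used DESeq2 1.42.0 and limma 3.58.1, among others. Promoters and overlaps came from RefSeq on GRCm38.p6.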

Additional observations from a re-analysis of the deposited data

How the results depend on the processing

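Over 15 alternatives, the number of genes with an unadjusted p under 0.05 was 907 with the replicate block and 798 without replicate 3 of both groups, and with each library left out it lay between 163 (without AMD3100 replicate 1) and 547 (without control replicate 3), with 451 without AMD3100 replicate 3. After adjustment, 5 genes passed with DESeq2 and 3 with the replicate block. Of the immediate early genes, 2 passed the unadjusted threshold with the block, and between 0 and 2 with each library left out. Of the other list genes, 12 passed with the block, 18 without replicate 3 of both groups, and between 0 (without AMD3100 replicate 1) and 8 with each library left out, with 2 without control replicate 1, 3 without control replicate 2 and 3 without AMD3100 replicate 2. With each library left out, the log2 fold change ranged from -0.038 to 0.20 for Jun, from -1.46 to 0.11 for Egr1 and from -0.15 to 0.14 for Klf6, and that of Klf6 was 0.069 without replicate 3 of both groups, so the direction of these 3 genes was not fixed. The other 6 genes tested kept their direction under all alternatives in which they were tested. The block changed no call among the immediate early genes other than those of Egr1 and Ier2, and of the 6 list genes it ended those of Nr4a1 and Gadd45a. The causes were not tested. Counts were lowest for Fos, Fosb and Atf3, and with 3 tubes a group the interval of Fos spans several fold each way. The part of depth in that interval was not tested.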
